A study of Mus musculus with 6 samples.

Results

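The transcripts described here are 8 genes of the red blood cell, Hba-a1, Hba-a2, Hbb-bs, Hbb-bt, Alas2, Slc4a1, Bpgm and Fech, measured by RNA sequencing in adult mouse lung. They were chosen by name, as the rows of the count table whose gene symbol equals one of these, and all 8 of them were found among the 41388 genes of the table. The lungs came from control C57BL/6J mice (WT, 3 libraries) and from Zpbp2-/- mice (KO, 3 libraries) of the strain B6.129S7-Zpbp2tmZuk/Mmjax, which lack the first exons of Zpbp2 in all tissues and have a C57BL/6J background. All were collected at Zeitgeber time 7 (ZT7), 7 h after lights on under a light and dark cycle, and the WT mice were raised in the same colony. The labels used here give neither the sex nor the exact age of an animal. Values are given as CPM, which is the count of a gene for every 1e6 counts in its library, after TMM scaling of library sizes.

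Haemoglobin, the oxygen carrier of the red cell, is a tetramer of alpha and beta globin chains that each hold a haem group. Alas2 starts haem synthesis in red cell precursors, Fech inserts the iron that completes haem, Slc4a1 is the band 3 anion exchanger of the red cell membrane, and Bpgm makes the 2,3-bisphosphoglycerate that lowers the oxygen affinity of haemoglobin. Circulating mammalian red cells have lost their nucleus but young ones, the reticulocytes, still carry globin RNA, so a vascular organ such as lung yields these transcripts together with those of its own cells. In a bulk tissue, more red cells and more RNA per red cell cannot be told apart.

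The 4 globin genes lie in clusters of near-identical copies, and their sequences decide how far their counts can be separated. In GRCm38, with GENCODE M21 gene limits, Hba-a1 is on the plus strand at chr11:32283511-32284465 and Hba-a2 on the plus strand at chr11:32296489-32297298. Hbb-bs is on the minus strand at chr7:103826534-103828096 and Hbb-bt on the minus strand at chr7:103812524-103813996. The coding sequences of Hba-a1 and Hba-a2 are both 429 bases long and differ at 1 base, C381T, counted from the A of the start codon with the Hba-a1 base first. Those of Hbb-bs and Hbb-bt are both 444 bases long and differ at 1 base, C417T, with the Hbb-bs base first. The 60 bases around each difference are shown because they are the only coding stretch in which a read can tell the copies apart, with the differing base in capitals.
Hba-a1: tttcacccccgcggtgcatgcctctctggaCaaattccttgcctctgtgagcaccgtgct
Hba-a2: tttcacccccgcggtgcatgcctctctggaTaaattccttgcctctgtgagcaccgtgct
Hbb-bs: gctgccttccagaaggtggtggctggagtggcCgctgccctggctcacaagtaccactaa
Hbb-bt: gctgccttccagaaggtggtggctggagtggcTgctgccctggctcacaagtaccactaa

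The other bases that separate the copies lie in the untranslated ends. Of all windows of 100 bases in the Hba-a1 transcript, 56.5% also occur in Hba-a2, and 74.5% of those of Hba-a2 occur in Hba-a1. For Hbb-bs and Hbb-bt the shares were 62.6% and 54.8%. With windows of 50 bases they were 67.5% and 86.9% for the alpha pair and 65.8% and 58.3% for the beta pair. The read length and the treatment of reads with several matches are not given in the sources used here, so the counts of each copy are uncertain. The sum over a pair avoids a wrong choice of copy. If reads that match both copies were left out of counting, the sum lacks them too, by a share that can differ between the alpha and beta pairs.

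The other genes have no near-identical neighbour in these clusters. Alas2 is on the plus strand at chrX:150547375-150570638 and overlaps Apex2 and Mir3620 on the other strand, so that reads of these genes cannot be told apart if strand was not used in counting. Slc4a1 is on the minus strand at chr11:102348824-102366203, 3.79 Mb from Zpbp2. Bpgm is on the plus strand at chr6:34476207-34505613. Apart from Alas2, no member was overlapped by another annotated gene.

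Promoter sequence, the 250 bases before the start of transcription in RefSeq on GRCm38.p6, was at hand for 6 of the 8 genes and is shown because KO2 and KO3 were the highest libraries for all of these genes. The windows were searched on both strands for GATAA (the core of a GATA site), CACCC (the CACCC box) and CCAAT (the CCAAT box), and matches are in capitals. No motif contains another, and neighbouring matches can touch. The RefSeq starts differ from the GENCODE gene limits above. The windows are chr11:32283422-32283671 (plus strand) for Hba-a1, chr11:32296242-32296491 (plus strand) for Hba-a2, chr7:103827929-103828178 (minus strand) for Hbb-bs, chr7:103813924-103814173 (minus strand) for Hbb-bt, chrX:150547167-150547416 (plus strand) for Alas2 and chr6:34476106-34476355 (plus strand) for Bpgm.
Hba-a1: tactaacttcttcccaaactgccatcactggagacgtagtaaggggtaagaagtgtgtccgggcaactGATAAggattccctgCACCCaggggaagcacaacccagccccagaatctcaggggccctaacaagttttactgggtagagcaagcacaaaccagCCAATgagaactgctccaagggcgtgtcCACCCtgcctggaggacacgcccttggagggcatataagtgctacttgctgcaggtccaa
Hba-a2: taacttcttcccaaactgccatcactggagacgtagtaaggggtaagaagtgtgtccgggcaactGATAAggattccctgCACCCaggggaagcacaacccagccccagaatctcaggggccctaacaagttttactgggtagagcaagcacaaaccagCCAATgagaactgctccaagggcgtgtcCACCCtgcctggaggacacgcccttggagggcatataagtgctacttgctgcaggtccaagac
Hbb-bs: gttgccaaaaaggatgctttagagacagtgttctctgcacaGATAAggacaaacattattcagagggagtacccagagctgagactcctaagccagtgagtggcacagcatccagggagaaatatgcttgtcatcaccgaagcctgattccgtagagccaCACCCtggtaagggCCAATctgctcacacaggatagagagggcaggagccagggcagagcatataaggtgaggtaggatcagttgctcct
Hbb-bt: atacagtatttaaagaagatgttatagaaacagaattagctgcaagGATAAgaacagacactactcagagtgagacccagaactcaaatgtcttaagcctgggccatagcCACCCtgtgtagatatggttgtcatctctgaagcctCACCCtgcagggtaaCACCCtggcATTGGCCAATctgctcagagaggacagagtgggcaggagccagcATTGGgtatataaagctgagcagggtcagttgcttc
Alas2: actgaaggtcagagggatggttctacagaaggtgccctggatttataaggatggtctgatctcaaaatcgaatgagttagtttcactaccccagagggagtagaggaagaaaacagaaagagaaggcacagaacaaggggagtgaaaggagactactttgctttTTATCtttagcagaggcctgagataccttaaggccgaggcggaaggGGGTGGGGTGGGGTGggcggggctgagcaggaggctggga
Bpgm: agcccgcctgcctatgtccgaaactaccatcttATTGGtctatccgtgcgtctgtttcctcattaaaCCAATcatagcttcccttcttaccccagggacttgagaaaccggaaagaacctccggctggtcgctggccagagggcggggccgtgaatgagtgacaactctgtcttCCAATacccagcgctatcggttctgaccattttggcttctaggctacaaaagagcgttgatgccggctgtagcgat

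Each of the 4 globin windows held all 3 motifs, which 3.45% of the 32851 promoter windows of the same length did. GATAA or its complement was in 22.6% of all windows, CACCC in 52.0% and CCAAT in 33.8%. In the Hba-a1 window the GATAA match began 182 bases before the start, the CACCC matches 167 and 60 bases before it and the CCAAT match 88 bases before it. The Hbb-bs window had GATAA at 209, CACCC at 90 and CCAAT at 76 bases before the start, and the Hbb-bt window had 3 CACCC and 3 CCAAT matches. The Alas2 window held 1 GATAA match on the opposite strand, 86 bases before the start, and 3 CACCC matches, and no CCAAT. The Bpgm window held 3 CCAAT matches and neither other motif. The windows of Hba-a1 and Hba-a2 share an unbroken run of 247 bases, against 14 bases for Hbb-bs and Hbb-bt. A match is a description of letters and no test of binding.

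Total counts ranged from 59134950 to 71354388 per library, and 23070 to 23711 genes were detected. The targeted gene Zpbp2 had 20, 15 and 7 counts in WT1, WT2 and WT3 and 1, 0 and 0 counts in KO1, KO2 and KO3, which follows the labels (edgeR adjusted p 0.0653). KO2 and KO3 differed by little more than counting noise: for genes with 2000 to 20000 counts in the pair their variance was 1.93 times the counting variance, against 9.32 times for WT1 and WT2 and 21 times for KO1 and KO2. This pair was taken as a single sample, giving n = 3 for WT and n = 2 for KO, and the calls are also given with the 6 libraries kept separate. WT3 and KO1 stood apart by transcripts of squamous epithelium, with summed marker levels of 4300 and 8063 CPM against 5.88 to 7.75 CPM in the other 4 libraries. The markers of lung epithelium, led by Scgb1a1 and Sftpc, summed to 46527 to 75634 CPM, so the labelled tissue was present in all libraries.

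The question for these genes was whether lungs of Zpbp2-/- mice carried more or less red cell RNA than WT lungs. Of the 8 genes, 0 were called between KO and WT, while 2.28% of all 18660 tested genes were called (426 genes), 1.38% as higher in KO and 0.906% as lower. The 8 genes were all above 0 in log2 fold change, with a median of 1.63 against 0.02 for all tested genes. None of these estimates passed the test. KO2 and KO3 had the highest levels of all 8 genes, and KO1 fell inside the WT range for all 8.

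Among the alpha globin genes, Hba-a1 (ENSMUSG00000069919) had 434, 352 and 903 CPM in WT1, WT2 and WT3 and 757, 3140 and 3223 CPM in KO1, KO2 and KO3. KO2 and KO3 were above every other library, while KO1 lay between WT1 and WT3. WT averaged 563 ± 297 CPM (SD, n = 3), against 1969 ± 1714 CPM (SD, n = 2) for KO. On the log2 scale KO exceeded WT by 1.81 (SE 0.70), which did not pass the test (edgeR adjusted p 0.180). Hba-a2 (ENSMUSG00000069917), which encodes the same chain, had 272, 230 and 572 CPM in WT and 486, 2025 and 2075 CPM in KO. Its libraries stood in the same order as those of Hba-a1, and its log2 fold change was 1.83 (SE 0.70, edgeR adjusted p 0.176).

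The most abundant of the 8 genes was the beta globin gene Hbb-bs (ENSMUSG00000052305). It had 1572, 1452 and 3240 CPM in WT and 2203, 11019 and 11523 CPM in KO. KO1 was lower than WT3, and the 2 high KO libraries differed from each other by a factor of only 1.05. WT averaged 2088 ± 1000 CPM (SD, n = 3), against 6737 ± 6412 CPM (SD, n = 2) for KO, so the SD in KO was nearly as large as the mean. The estimated log2 fold change was 1.70 (SE 0.74, edgeR adjusted p 0.217). The second beta globin gene, Hbb-bt (ENSMUSG00000073940), had 274, 251 and 566 CPM in WT and 381, 2056 and 2135 CPM in KO. The same libraries were high and low, and the log2 fold change of 1.78 (SE 0.76) had an edgeR adjusted p of 0.213.

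**Figure D1:**
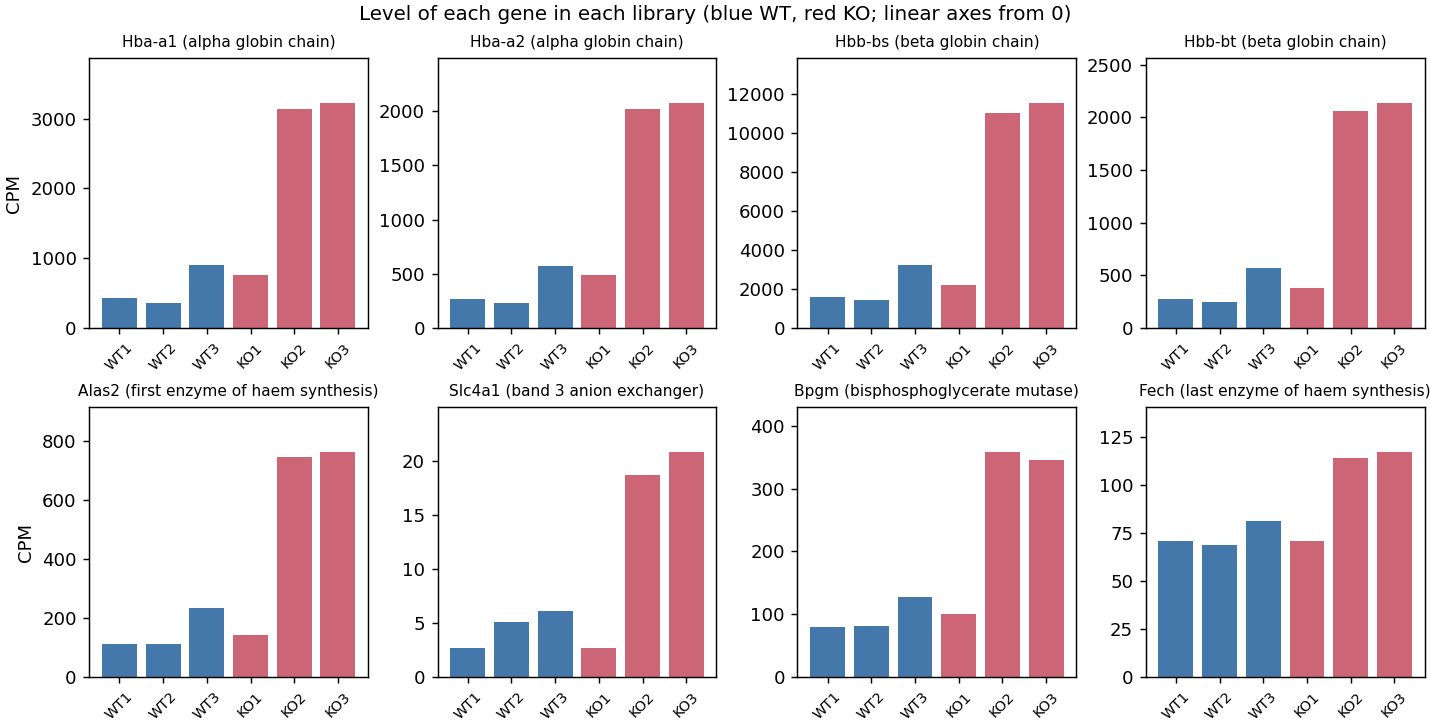
CPM of each of the 8 genes (y axes, linear, from 0) in each of the 6 libraries (x axes), 1 bar per library, with WT in blue and KO in red. KO2 and KO3 are the highest bars in all 8 panels, WT3 is the highest of the WT bars, and the Fech panel has the flattest profile.

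Haem synthesis was represented by its erythroid first enzyme and by its last. Alas2 (ENSMUSG00000025270) had 113, 112 and 235 CPM in WT and 143, 746 and 761 CPM in KO. KO1 again lay within the WT range, below WT3. KO exceeded WT by 1.55 on the log2 scale (SE 0.74, edgeR adjusted p 0.249). Fech (ENSMUSG00000024588; chr18:64452914-64490251, minus strand), which nucleated cells of many kinds also use, had 70.8, 68.8 and 81.2 CPM in WT and 70.8, 114 and 117 CPM in KO. WT1 and KO1 were level for Fech. WT averaged 73.6 ± 6.64 CPM (SD, n = 3), against 93.2 ± 31.7 CPM (SD, n = 2) for KO, and the log2 fold change of 0.35 (SE 0.22) was the smallest of the 8 (edgeR adjusted p 0.373).

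Slc4a1 (ENSMUSG00000006574), the anion exchanger, was the least abundant of the 8 genes. It had 2.71, 5.13 and 6.09 CPM in WT and 2.73, 18.7 and 20.8 CPM in KO, from 198, 360, 365, 172, 1157 and 1214 counts. Unlike the globin genes, it was about as low in WT1 as in KO1, and WT2 was close to WT3. The SE of 0.82 was large beside its log2 fold change of 1.29 (edgeR adjusted p 0.377). Bpgm (ENSMUSG00000038871), the bisphosphoglycerate mutase, had 79.5, 81.3 and 128 CPM in WT and 101, 358 and 345 CPM in KO. WT1 and WT2 were level, and KO2 was slightly above KO3, the reverse of the other 7 genes. Its log2 fold change was 1.24 (SE 0.55, edgeR adjusted p 0.221).

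Levels of different genes were compared per kilobase of exon, which for the globin genes rests on the uncertain counts of each copy. In WT, Hbb-bs had 2719 ± 1302 CPM per kb (SD, n = 3), followed by Hba-a1 with 694 ± 366, Hba-a2 with 537 ± 280 and Hbb-bt with 517 ± 250 CPM per kb. The last 3 overlapped within their SD. Alas2 had 64.0 ± 29.4, Bpgm 26.8 ± 7.60, Fech 5.32 ± 0.480 and Slc4a1 0.949 ± 0.357 CPM per kb. Every other step in this order was larger than the SD of either neighbour. The order of Hbb-bs, Hba-a1, Alas2, Bpgm, Fech and Slc4a1 was the same in every library.

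The libraries of a genotype differed from each other by more than the typical gene. The highest WT library exceeded the lowest 2.57-fold for Hba-a1, 2.23-fold for Hbb-bs, 2.09-fold for Alas2 and 1.18-fold for Fech, against a median of 1.15-fold over all tested genes. WT3 was the highest WT library for all 8 genes. Within KO, KO2 exceeded KO1 4.15-fold for Hba-a1, 5.40-fold for Hbb-bt, 6.82-fold for Slc4a1 and 1.61-fold for Fech. KO3 was 0.961 to 1.11 times KO2 for the 8 genes, and this pair counts as 1 sample.

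The mean of KO2 and KO3 was 5.65 times the WT mean for Hba-a1, 5.73 times for Hba-a2, 5.40 times for Hbb-bs and 5.76 times for Hbb-bt. It was 4.90 times for Alas2, 4.25 times for Slc4a1, 3.66 times for Bpgm and 1.57 times for Fech. Of all tested genes, 0.364% had a ratio of at least 4 and 5.10% a ratio of at least 1.5. KO2 and KO3 lay above the other 4 libraries in 8 of the 8 genes, as did 16.9% of all tested genes. All KO libraries lay above all WT libraries in 0 of the 8 genes, against 20.1% of tested genes. KO1 was inside the WT range for 8 of the 8 genes, against 24.8% of tested genes, and was lower than WT3 for each, from 0.449 times its level for Slc4a1 to 0.872 times for Fech.

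With the 6 libraries kept separate, so that KO2 and KO3 counted as 2 samples, the 8 log2 fold changes were 0.45 to 2.09 and the edgeR adjusted p values 0.0615 to 0.169. Again 0 of the 8 genes were called, although 18.9% of the 18014 tested genes were. With KO2 and KO3 as 1 sample, an unadjusted threshold of 0.05 was passed by 2 of the 8 genes, Hba-a1 and Hba-a2, and by 27.3% of tested genes. DESeq2 called 0 of the 8 genes and 22.9% of the 17124 genes it tested.

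WT3 and KO1, the libraries with squamous transcripts, were then left out together, an alternative added after the data had been seen. This left WT1 and WT2 against KO2 and KO3 as a single KO sample, whose spread is assumed to be that of WT. In this comparison 8 of the 8 genes were called higher, with edgeR adjusted p values of at most 0.00325, while 6.01% of the 18971 tested genes were called higher. The log2 fold changes were 3.01 (SE 0.13) for Hba-a1, 2.89 (SE 0.09) for Hbb-bs, 2.73 (SE 0.09) for Alas2, 2.33 (SE 0.28) for Slc4a1, 2.13 (SE 0.08) for Bpgm and 0.72 (SE 0.08) for Fech. WT3 was the highest WT library and KO1 the lowest KO library, so their absence widens the gap by construction. With KO1 as the only KO sample, the log2 fold changes were 0.42 for Hba-a1, 0.44 for Hba-a2, 0.07 for Hbb-bs, 0.06 for Hbb-bt and 0.06 for Bpgm, and turned to -0.10 for Alas2, -0.76 for Slc4a1 and -0.06 for Fech. The difference between the genotypes thus rested on KO2 and KO3, which stand for 1 sample.

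**Figure D2:**
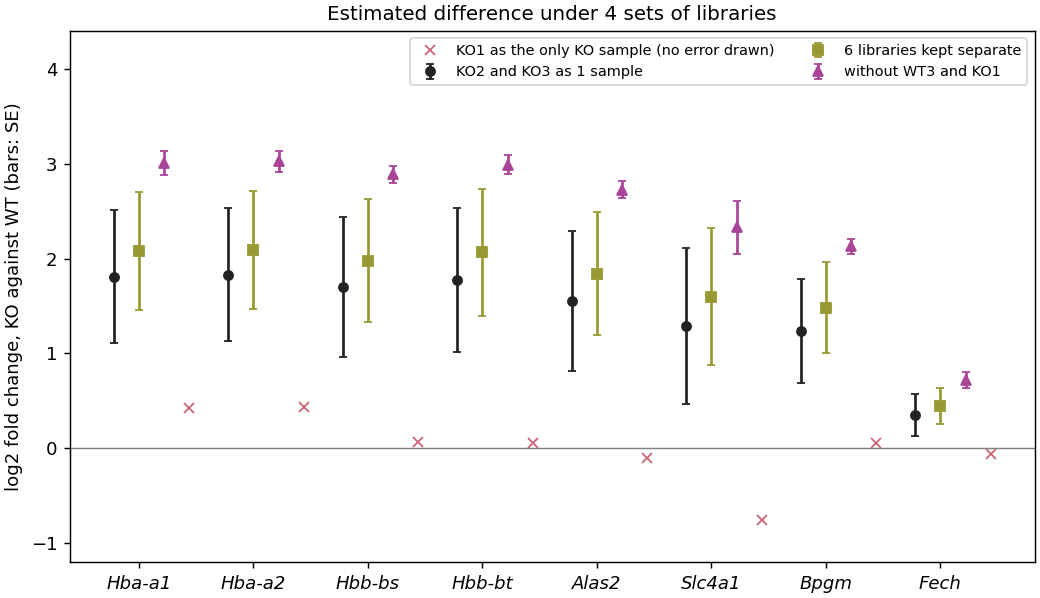
Log2 fold change of KO against WT (y axis) for the 8 genes (x axis) with KO2 and KO3 as 1 sample, with 6 separate libraries, without WT3 and KO1, and with KO1 as the only KO sample; bars are SE and are not drawn for the last. Estimates for the globin genes are 1.70 to 1.83 in the first set and 0.06 to 0.44 in the last, and Fech is the lowest gene in the first 3 sets.

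Ratios between the globin genes do not depend on library scaling. The ratio of Hba-a1 to Hba-a2 counts was 1.60, 1.53 and 1.58 in WT and 1.56, 1.55 and 1.55 in KO. It therefore stayed within the WT range in every KO library while the summed level of the 4 adult globin genes ran from 2284 to 18957 CPM. The ratio of Hbb-bs to Hbb-bt was 5.73, 5.79 and 5.73 in WT and 5.78, 5.36 and 5.40 in KO. The 95% Wilson interval of KO2, 5.33 to 5.39, lay below those of the other 4 libraries outside the pair, the lowest of which began at 5.65. Such intervals hold counting error alone and treat each read as a separate molecule.

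The alpha genes together had 0.382, 0.342 and 0.388 counts per beta count in WT and 0.481, 0.395 and 0.388 in KO. KO1 was the highest, with a 95% interval of 0.477 to 0.485, and WT2 the lowest, with 0.338 to 0.346. The chain ratio thus varied among libraries by more than counting error, and its highest value belonged to a library whose globin level was within the WT range. The lowest KO ratio and the highest WT ratio lay within each other's counting error, with 95% intervals of 0.386 to 0.390 in KO3 and 0.385 to 0.391 in WT3, and the difference between genotypes was not tested.

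**Figure D3:**
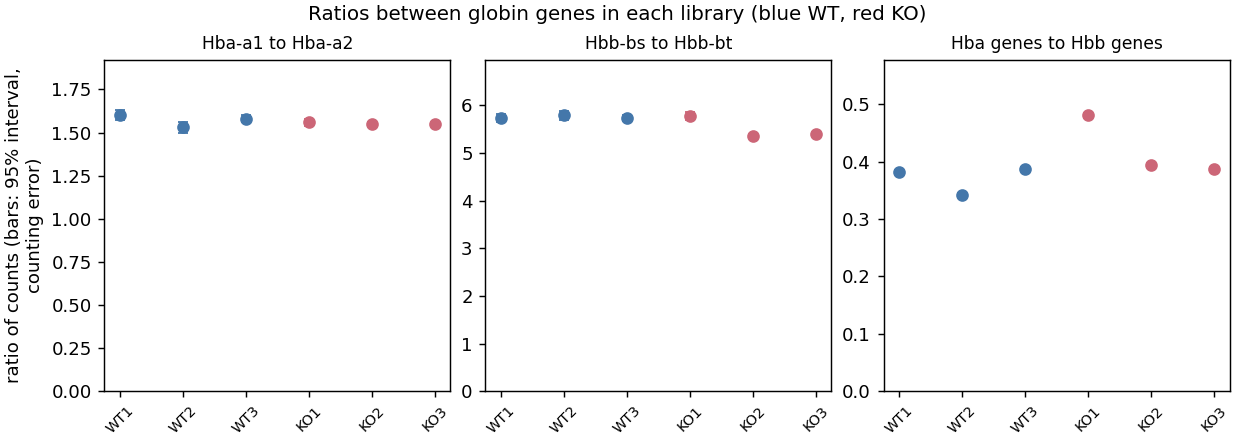
Ratio of counts (y axes, linear, from 0) of Hba-a1 to Hba-a2, of Hbb-bs to Hbb-bt and of the Hba genes to the Hbb genes in each library (x axes), with WT in blue, KO in red and bars for the 95% interval of counting error. The first ratio lies between 1.53 and 1.60 throughout, the second is lowest in KO2 and KO3 (5.36 and 5.40), and the third is highest in KO1 (0.481).

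The other genes were set against the globin counts of their own library. Alas2 had 44.5, 49.2 and 44.6 counts per 1000 adult globin counts in WT and 37.5, 40.9 and 40.1 in KO. Alas2 was thus somewhat lower relative to globin in each KO library than in each WT library, while its own level spanned a 6.77-fold range. This difference was not tested. Slc4a1 had 1.06, 2.25 and 1.15 per 1000 in WT and 0.715, 1.02 and 1.10 in KO, so that WT2 alone stood high. Bpgm had 31.1, 35.6 and 24.2 in WT and 26.3, 19.7 and 18.2 in KO. Fech had 27.7, 30.1 and 15.4 in WT and 18.5, 6.24 and 6.19 in KO. For Fech, and less so for Bpgm, the number per globin count was lowest where the globin level was highest.

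Of the other genes of red cell biology, 77 were listed by function in 7 groups and 71 were tested. Only Alad, the second enzyme of haem synthesis, was called. It had 41.9, 41.5 and 44.7 CPM in WT and 58.1, 55.6 and 59.2 CPM in KO, with non-overlapping groups. KO exceeded WT by 0.44 on the log2 scale (SE 0.05, edgeR adjusted p 0.0446). Its order of libraries was another than that of the 8 genes, since KO1 was as high as KO2 and KO3. With the 6 libraries kept separate its edgeR adjusted p was 0.00670, and it was called in 10 of 18 alternatives.

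Of the 9 haem synthesis genes, which include Alas2 and Fech, 9 were tested, 1 was called higher and 0 lower, and the median log2 fold change was 0.25. The housekeeping first enzyme Alas1 had 293, 332 and 310 CPM in WT and 343, 516 and 518 CPM in KO. KO2 and KO3 were highest for Alas1 too, by a smaller ratio of 1.66 to the WT mean, and its edgeR adjusted p was 0.182. Uros, Urod, Cpox and Ppox, enzymes between Alad and Fech, were not called, and the mean of KO2 and KO3 was at most 1.13 times the WT mean in each.

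Of the 16 red cell membrane genes, 16 were tested and 0 were called, with a median log2 fold change of -0.20, and 10 of the 16 were below 0. The most abundant genes of the group, Epb41, Tmod1 and Gypc, which other cells use as well, had KO2 and KO3 means of 1.46, 0.740 and 0.806 times the WT mean. Ank1 and Sptb had ratios of 0.355 and 0.446, opposite in direction to Slc4a1. Ank1 was highest in WT1 with 47.8 CPM, the library that also had the highest sum of heart muscle markers. Sptb was instead highest in WT3 and KO1, with 37.9 and 37.8 CPM. Any part of heart muscle in these values was not tested.

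Of the 18 red cell enzyme and maturation genes, which include Bpgm, 17 were in the table, 16 were tested and 0 were called, with a median log2 fold change of 0.36. Tspo2, an erythroid relative of the translocator protein, had 0.328, 0.385 and 0.517 CPM in WT and 0.382, 2.40 and 2.67 CPM in KO. Ube2l6, a ubiquitin-conjugating enzyme, had 42.0, 42.7 and 61.7 CPM in WT and 45.6, 146 and 144 CPM in KO. In both of these genes KO2 and KO3 were the highest and KO1 was within the WT range, and their edgeR adjusted p values were 0.201 and 0.277. Cat and Tmcc2, the most abundant of the group, had ratios of 1.14 and 0.958.

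The next list holds erythroid transcription factors and the erythropoietin receptor. Of these 9 genes, 9 were tested and 0 were called, with a median log2 fold change of 0.13. Klf1, which drives adult beta globin transcription in precursors, was at 0.0683, 0.242 and 0.200 CPM in WT and 0.111, 0.306 and 0.137 CPM in KO. Gata1 was at 1.22, 0.955 and 0.884 CPM in WT and 1.03, 1.48 and 1.37 CPM in KO, and Gfi1b at 0.302 to 0.581 CPM. The groups overlapped for Klf1, which had 5 to 19 counts in a library. Tal1, Nfe2, Zfpm1, Lmo2, Ldb1 and the receptor gene Epor had KO2 and KO3 means of 1.06 to 1.35 times the WT mean.

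The group of iron supply genes had 11 of its 11 genes tested and 0 called, with a median log2 fold change of 0.17. The transferrin receptor Tfrc, by which red cell precursors take up iron, was at 60.7 to 78.7 CPM in WT and 63.5 to 68.3 CPM in KO. The mitochondrial iron importer Slc25a37 was at 81.6 to 85.3 CPM in WT and at 74.2, 115 and 116 CPM in KO, so that KO2 and KO3 alone stood above WT. The ferritin genes Fth1 and Ftl1 had log2 fold changes of 0.30 and 0.34 and edgeR adjusted p values of 0.0577 and 0.131, and those of Slc48a1, a haem transporter, were 0.18 and 0.0955. With 6 separate libraries, Fth1, Ftl1 and Slc48a1 were called higher, at edgeR adjusted p values of 0.0123, 0.0377 and 0.0264. These were 3 of the 11 genes, where 18.9% of all tested genes were called in either direction.

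Haem breakdown and haemoglobin scavenging were covered by 9 genes, of which 9 were tested and 0 called, with a median log2 fold change of 0.17. Hp, haptoglobin, which binds free haemoglobin and is made in lung as well as liver, had 855, 1028 and 841 CPM in WT and 1169, 1444 and 1416 CPM in KO. The groups did not overlap for Hp, and its edgeR adjusted p was 0.0900. Cd163, the macrophage receptor for haptoglobin-bound haemoglobin, had 12.7, 13.2 and 14.0 CPM in WT and 8.22, 5.87 and 6.46 CPM in KO, opposite in direction to Hp, with an edgeR adjusted p of 0.0514. Hmox1, which opens the haem ring, had 31.1, 32.4 and 42.0 CPM in WT and 51.2, 42.6 and 44.4 CPM in KO, with an edgeR adjusted p of 0.155. The abundant Lrp1 and Hmox2 had ratios of 0.740 and 1.08. With 6 separate libraries, Hp and Blvrb were called higher and Cd163 and Lrp1 lower, so 2 of 9 genes went each way. In that fit 18.9% of all tested genes were called in either direction.

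At an unadjusted edgeR threshold of 0.05, 3 of 9 haem synthesis genes, 6 of 9 haem breakdown genes, 3 of 16 membrane genes, 1 of 9 transcription factor genes, 3 of 11 iron supply genes and 4 of 16 enzyme and maturation genes passed, to be read against 27.3% of all tested genes. With 6 separate libraries 3 of 15 membrane genes, Tmod1, Add2 and Xk, were called lower. Of 15 enzyme and maturation genes 2 were called higher, Prdx2 and Bnip3l. In that fit 18.9% of all tested genes were called in either direction, so both counts are near the share of all genes. The same lists, with Alas2, Fech, Slc4a1 and Bpgm among their genes, were also counted without WT3 and KO1, where 6.01% of all tested genes were called higher and 5.88% lower. Of the enzyme and maturation genes 8 of 17 were called higher by edgeR and 0 lower, of the haem synthesis genes 4 of 9 were higher and 0 lower, and of the membrane genes 4 of 16 were higher and 2 lower. Of the haem breakdown genes 4 of 9 were higher and 2 lower, and of the iron supply genes 2 of 11 were higher. None of the 9 transcription factor genes was called in that comparison, where 8 of the 8 red cell genes named at the outset were.

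**Figure D4:**
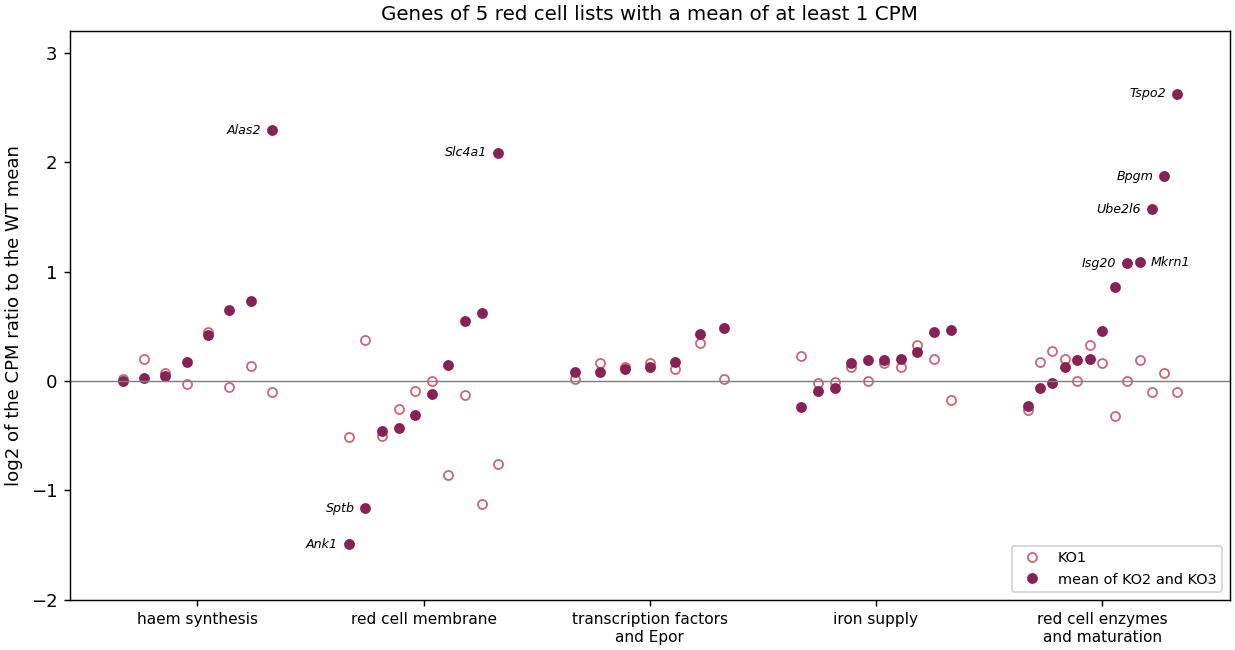
Log2 of the CPM of KO1 (open circles) and of the mean of KO2 and KO3 (filled circles) over the WT mean (y axis) for genes reported from 5 lists of red cell genes, Alas2, Fech, Slc4a1 and Bpgm included, with a mean of at least 1 CPM (x axis, grouped by list). In KO2 and KO3 Alas2, Slc4a1, Bpgm and Tspo2 lie far above 0, the transcription factors lie close to 0, and Ank1 and Sptb lie below it.

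Other globin genes were examined beside the adult ones. The embryonic and fetal genes Hba-x, Hbb-bh0, Hbb-bh1 and Hbb-bh2 had at most 0.0514 CPM in any library and Hbb-y at most 0.129 CPM, none of which were tested. The theta globin genes Hbq1a and Hbq1b, themselves near-identical copies, had 0.191 to 0.450 and 0.157 to 0.367 CPM in WT. In KO1, KO2 and KO3 Hbq1a had 0.238, 0.887 and 0.959 CPM and Hbq1b 0.318, 1.03 and 0.874 CPM, the order of groups seen for the adult genes, with edgeR adjusted p values of 0.381 and 0.201.

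The globins of other tissues did not share that order. Mb, the myoglobin of heart and skeletal muscle, had 532, 256 and 479 CPM in WT and 443, 109 and 106 CPM in KO, lowest where the adult globins were highest (edgeR adjusted p 0.595). Heart muscle markers summed to 2612 to 7423 CPM in WT and 1362 to 1543 CPM in KO, and their part in the Mb values was not tested. Cygb, cytoglobin, had 59.9 to 66.7 CPM in WT and 63.6 to 66.1 CPM in KO. Ngb, neuroglobin, had 3.10 to 4.20 CPM in WT and 5.18 to 6.03 CPM in KO, so its groups did not overlap (edgeR adjusted p 0.105). With 6 separate libraries Ngb was called higher, at an edgeR adjusted p of 0.0356.

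Markers of other blood cells were read in the same libraries. Platelet markers, led by Itga2b, Ppbp and Pf4, summed to 137, 97.5 and 117 CPM in WT and 141, 188 and 191 CPM in KO. They were highest in KO2 and KO3, like the adult globins, though the sum of the globins was 5.51 times the WT mean in these libraries. Of the 12 platelet genes 0 were called, with a median log2 fold change of 0.57. KO2 and KO3 were highest for 9 of the 12, against 16.9% of all tested genes. Neutrophil markers, led by Ltf, S100a9 and Csf3r, summed to 278, 237 and 182 CPM in WT and 155, 158 and 156 CPM in KO, the opposite direction. B cell markers, led by Ighm, summed to 691 to 820 CPM in WT and 648 to 836 CPM in KO, and T cell markers to 63.3 to 84.0 and 80.0 to 88.0 CPM. Of the 12 neutrophil, 9 B cell and 10 T cell genes tested with edgeR, 0 were called. An unadjusted 0.05 was passed by 4, 3 and 1 of them and by 4 of the platelet genes, against 27.3% of all tested genes. With 6 separate libraries, 3 of 12 platelet genes were called higher, and 2 of 11 neutrophil and 3 of 9 B cell genes lower. In that fit 18.9% of all tested genes were called in either direction.

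Markers of solid tissues also differed among libraries. Hepatocyte markers summed to 64.7, 75.5 and 53.3 CPM in WT and 24.6, 108 and 106 CPM in KO, but most of the WT sum was Cyp2e1, a cytochrome P450 with 56.5, 68.3 and 45.7 CPM in WT and 12.9, 45.2 and 43.0 CPM in KO. Without Cyp2e1, left out after its values were seen, the list summed to 8.20, 7.17 and 7.59 CPM in WT and 11.7, 62.4 and 62.6 CPM in KO, a mean in KO2 and KO3 of 8.17 times the WT mean. Alb, which encodes serum albumin, was at 1.04, 1.27 and 0.968 CPM in WT and 3.07, 24.0 and 25.0 CPM in KO. For Alb, KO2 and KO3 were again far above the other libraries. Of the 15 hepatocyte genes tested with edgeR 0 were called and 8 passed an unadjusted 0.05, against 27.3% of all tested genes. KO2 and KO3 were highest for 14 of the 15, against 16.9% of all tested genes. Adipocyte markers summed to 843 to 1435 CPM in WT and 179 to 367 CPM in KO, with Plin1, Lipe and Pck1 called lower. Lung epithelium markers were called higher for 6 of 10 genes, Sftpc, Sftpb, Sftpa1, Sftpd, Ager and Hopx. Lung endothelium markers, led by Cdh5, Pecam1 and Vwf, summed to 4910 to 5204 CPM in WT and 4505 to 5378 CPM in KO with 0 of 10 called, and were lowest in KO2 and KO3. Markers of spleen red pulp macrophages, led by Vcam1, Hmox1 and Slc11a1, summed to 170 to 184 CPM in WT and 161 to 183 CPM in KO with 0 of 7 called. With 6 separate libraries, 18.9% of all tested genes were called in either direction. In that fit 7 of 14 hepatocyte and 8 of 10 lung epithelium genes were higher. Of the adipocyte, cardiomyocyte and spleen macrophage genes, 8 of 10, 5 of 10 and 2 of 7 were lower, the last near the share of all genes. The part of any of these cell types in the globin values was not tested.

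**Figure D5:**
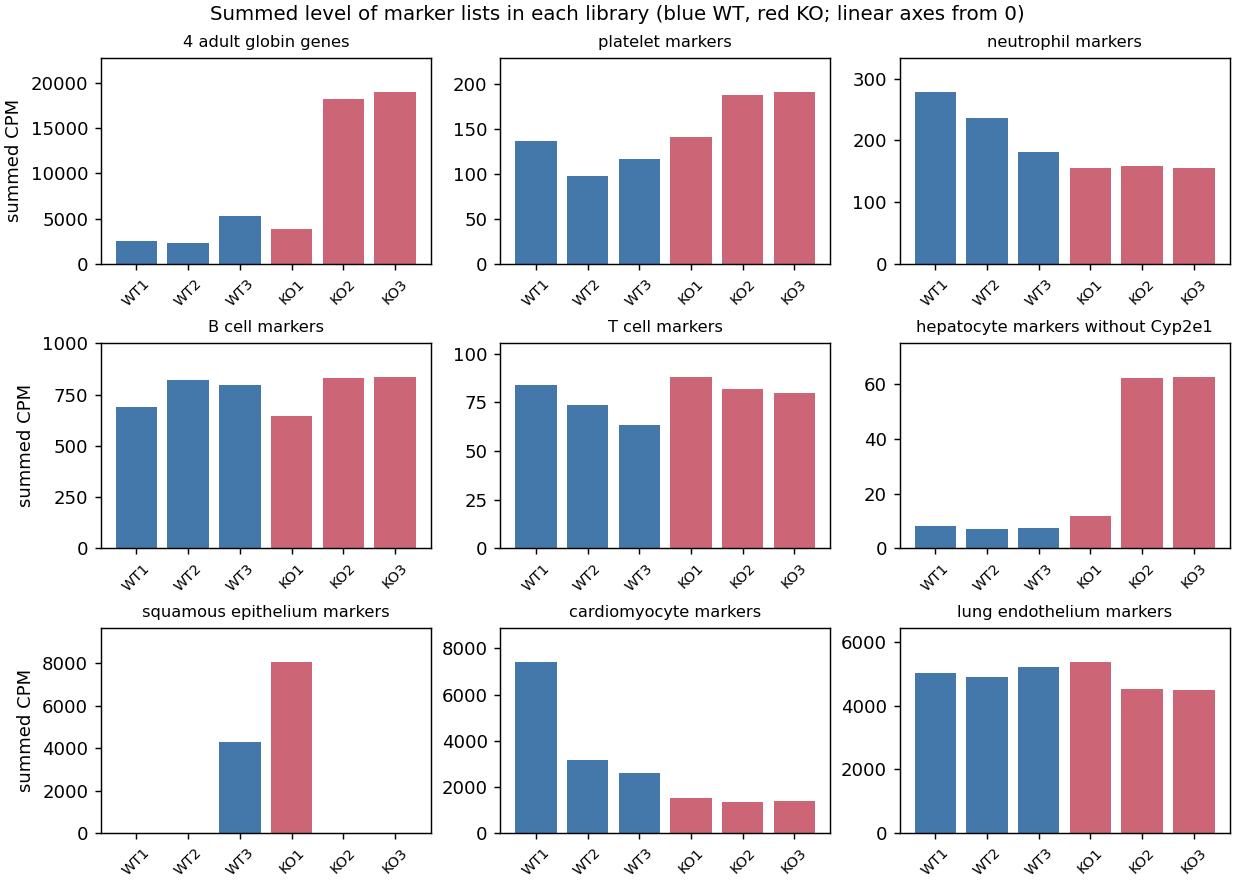
Summed CPM (y axes, linear, from 0) of the 4 adult globin genes and of 8 lists of marker genes, the hepatocyte list without Cyp2e1, in each library (x axes), with WT in blue and KO in red. The adult globins reach 18239 and 18957 CPM in KO2 and KO3, platelet and hepatocyte markers are also highest there, neutrophil markers are highest in WT1, and squamous markers are visible in WT3 and KO1 alone.

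The genes closest to the adult globins in profile were sought among 15143 tested genes with a mean of at least 1 CPM, by the root mean square difference of the centred log2(CPM + 0.5) values over the 5 samples. Among the closest were Gm10371, with a difference of 0.32 where the median of all genes was 1.09, Trim10 (0.33), Rec114 (0.33), Fabp2 (0.37), Apoa2 (0.40), Actg1 (0.43), Ube2l6 (0.44), Tspo2 (0.46) and 8430408G22Rik (0.48). By the same measure Hbb-bs was at 0.05 and Alas2 at 0.13 from the sum of which the former is the main part, Bpgm at 0.32, Slc4a1 at 0.51 and Fech at 0.82. The likeness rests on 5 samples, of which the pair KO2 and KO3 carries most of the range. Fabp2 and Apoa2 were below the added 0.5 CPM in every WT library, which flattens their profiles. Their KO2 and KO3 means were 46.0 and 8.69 times the WT mean, against 5.51 times for the globin sum. KO1 was above the WT range for both, unlike the adult globins.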

How the data were processed

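Lung RNA of 3 WT and 3 KO mice at ZT7 was measured by RNA sequencing. The authors deposited raw read counts per gene, not normalized, for 41388 genes, with 0 summary lines and 0 columns left unused. Per the submitters' processing notes and the study's methods, reads were trimmed with Trimmomatic 0.36, aligned to mm10 (GRCm38) with STAR 2.5.3a, handled with Picard 2.9.0 and counted with HTSeq 0.6.0. The annotation release, read length and strand setting are not given in the sources used here. GENCODE M21 held 40254 (97.3%) of the gene identifiers and supplied positions and exon lengths.

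Counts were tested with edgeR 4.0.16 in R 4.3.3 (filterByExpr, TMM scaling, two-sided quasi-likelihood test, Benjamini-Hochberg adjustment over all tested genes). The threshold for a call was an adjusted p of 0.05. The test was also run on simulated counts with the same spread for every gene and no outlying library, a simpler setting than these data. The outcome of that run is not reported here. CPM uses TMM-scaled library sizes, and KO2 and KO3 were summed in the fit and averaged in each mean. Total counts of 59134950 to 71354388 set the precision of low genes. P-values measure the spread between these samples, of which KO has 2.

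Genes and lists were chosen with earlier results of these data known, as was the merging of KO2 and KO3. Named were Zpbp2, the 8 genes, the called genes and the 3 most abundant of each list, the other globins and transcription factors with at least 10 counts in a library, and the 10 genes of most similar profile. Outside this rule, and chosen after their values were seen, are Uros, Urod, Cpox, Ppox, Ank1, Sptb, Add2, Xk, Tfrc, Slc25a37, Cd163, Blvrb, Prdx2, Bnip3l, the embryonic globin genes and the genes Isg20 and Mkrn1 marked in a plot. Of 18 alternatives, 15 were planned (separate libraries, replicate block, 2 other scalings, DESeq2 1.42.0, 2 filters, edgeR's exact test, libraries left out) and 3 were added after the data were seen: leaving out WT3 and KO1, a term for squamous markers and an offset for gene length. Hbb-b1, Hbb-b2, Ahsp and Ighd were not matched by name and were not analysed here. A few genes of the lists count in the totals, but their own values are not reported here.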

Additional observations from a re-analysis of the deposited data

How the results depend on the processing

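The count of the 8 genes called stayed at 0 in 17 of the 18 alternatives and was 8 without WT3 and KO1. The log2 fold changes of Hba-a1, Hba-a2, Hbb-bs, Hbb-bt and Bpgm were above 0 in all 18, and those of Alas2, Slc4a1 and Fech fell below 0 with KO1 as the only KO sample, to -0.10, -0.76 and -0.06. The lowest and highest edgeR or DESeq2 adjusted p over the alternatives were 7.48e-06 and 0.651 for Hba-a1 and 0.00221 and 0.878 for Fech.

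The count of all called genes, 426 with KO2 and KO3 as 1 sample, was 3402 with 6 separate libraries, 13 with library sizes that leave out adult globin counts, 3919 with DESeq2, 937 with at least 10 counts required in every library, 209 with the exact test, 0 with KO1 as the only KO sample, 2385 with the squamous term, 2256 without WT3 and KO1 and 4 with the length offset. Leaving out one library gave 0 to 418. Without WT1, WT2 or WT3 it was 0 in each case and without KO1 it was 17. The count of other red cell genes called, 1 in the fit reported, was 14, 0, 17, 2, 0, 0, 8, 26 and 0 in the same order, and 0 to 1 with one library left out. The cause of these shifts was not tested. With WT or KO libraries left out, the arms hold few samples, and a lone KO sample is assumed to vary like WT.

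A replicate block with 6 separate libraries called 1157 genes, 7 of the other red cell genes and 0 of the 8 genes. The replicate numbers did not pair the samples: deviations of the same-numbered libraries correlated at -0.48, 0.56 and -0.65, and not every library correlated best with its own number.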
